A study of Mus musculus with 8 samples.

Results

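The 40 genes described here are YAP/TAZ target genes known from other cell types, a list that runs from the standard readouts Ccn1, Ccn2 and Ankrd1 to membrane, cytoskeletal and RNA-binding proteins. They were taken by symbol from a table of 53170 named genes, and all 40 were found. RNA of organoids grown from the hindstomach (glandular stomach) epithelium of mouse embryos at embryonic day 18.5 was sequenced after 5 days in growth medium, in 8 libraries. The 4 YAP5SA libraries have the genotype Shh-Cre;YAP5SA, which combines the Cre recombinase with an active form of YAP, and the 4 control libraries have the genotype Shh-Cre. All 8 libraries therefore carry Shh-Cre, a recombinase that acts in the foregut epithelium and in other cells that express Shh. Whether libraries of the same genotype came from different embryos or cultures is not stated, and p-values here reflect library-to-library spread alone, which could be technical. The comparison asked how the YAP target genes differ between organoids with active YAP and controls.

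YAP and its relative TAZ are coactivators that bind DNA through the TEAD transcription factors. The Hippo kinases, ending with LATS1 and LATS2, phosphorylate YAP and TAZ and keep them out of the nucleus, and YAP5SA carries alanines in place of the serines that LATS phosphorylates. Many target genes encode secreted matrix and growth factor proteins, regulators of the actin cytoskeleton, and proteins that feed back on the Hippo pathway itself. In the digestive tract YAP is known for its part in growth and in repair after injury.

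Total counts per library, over all rows of the table, ran from 13672268 to 19710648, and levels are given in CPM (the counts of a gene scaled to library size). Sex differed with genotype. Xist, expressed from the inactive X chromosome in female cells, had 0.412 to 2.76 CPM in YAP5SA and 675.6 to 1049 CPM in controls, and 4 Y-linked genes summed to 260.8 to 289.4 CPM in YAP5SA and 0 to 0.596 CPM in controls. Genotype and sex cannot be told apart in these libraries. Mouse Yap1 had 153 ± 4 CPM in YAP5SA and 160.0 ± 7.2 CPM in controls (mean ± SD, n = 4 each, adjusted p = 0.339 by the quasi-likelihood test of edgeR), which does not check the labels, because reads of a transgene of another species might not be counted on the mouse gene. The 6 epithelial markers summed to 6307 to 6556 CPM in YAP5SA and 7594 to 8134 CPM in controls, where Krt8, Krt19 and Cdh1 fell and Krt18 and Cldn7 missed the threshold. Epcam rose to 640.4 ± 20.8 CPM in YAP5SA, against 486 ± 47 CPM in controls. Of 11 glandular stomach markers 9 fell, Sox2 rose and Muc5ac missed the threshold, and their sum was 72.9 to 78.2 CPM in YAP5SA and 2309 to 2495 CPM in controls. Of those that fell, Cldn18, Gkn1, Gkn2, Pgc, Gata5 and Muc6 were counted often enough to test only through the controls. Since many YAP targets are abundant in fibroblasts, mesenchymal markers were examined as well. None of the 14 was counted often enough to test, Lum was at 0 in all 8 libraries, and their sum was 0.994 to 2.07 CPM in YAP5SA and 2.25 to 4.80 CPM in controls. The sums of the 6 endothelial markers were 1.29 to 2.83 CPM in YAP5SA and 6.57 to 13.8 CPM in controls, and those of the 6 immune markers 9.72 to 10.6 CPM in YAP5SA and 19.8 to 39.1 CPM in controls. Within these lists Tek and Cd68 fell while Tie1 and Csf1r rose, and the part of other cells in the results was not tested. Tek, with 21 counts over the YAP5SA libraries, was counted often enough to test only through the controls. Tie1 and Csf1r, with 3 and 13 counts over the controls, were counted often enough only through YAP5SA. The glial marker Sox10 was at 0 in all 8 libraries. Of the 4 mesothelial markers Msln made up most of the sum, with 1441 ± 141 CPM in YAP5SA and 3246 ± 208 CPM in controls, while Upk3b rose to 18.6 ± 2.5 CPM in YAP5SA, against 4.23 ± 0.30 CPM in controls, and Lrrn4 to 7.58 ± 2.70 CPM in YAP5SA, against 3.76 ± 1.57 CPM in controls. The defining marker Wt1 had 0.0469 ± 0.0612 CPM in YAP5SA and 0 CPM in controls. In bulk RNA of this kind, fewer cells of a type and less RNA per cell cannot be told apart.

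TEAD factors recognise the letters GGAATG, read on either strand, so that CATTCC is the same match. RefSeq promoters (GRCm38.p6), 250 bases before to 50 bases after the gene's start, were found for 27 of the 40 genes, and 10 of these 27 (37.0%) held the letters in at least 1 promoter, against 14.6% of the 10157 tested genes that have a promoter. Over all 26994 genes with a promoter the share was 16.6%. Counted by promoter, it was 27.0% of the members' 37 promoters and 14.7% of all 32817 of this length. The AP-1 letters TGANTCA, which read the same on both strands, were held by 1 of the 27 (F3), against 6.28% of the tested genes and 8.98% of all genes with a promoter. The promoters of 4 genes with TEAD matches are shown, because Ankrd1 and Ccn1 are standard readouts and the related genes Ajuba and Wtip hold 2 and 4 matches, and that of F3 is shown for its AP-1 matches. Capitals mark the matches.
Ccn1 (chr3:145649936-145650235, minus strand): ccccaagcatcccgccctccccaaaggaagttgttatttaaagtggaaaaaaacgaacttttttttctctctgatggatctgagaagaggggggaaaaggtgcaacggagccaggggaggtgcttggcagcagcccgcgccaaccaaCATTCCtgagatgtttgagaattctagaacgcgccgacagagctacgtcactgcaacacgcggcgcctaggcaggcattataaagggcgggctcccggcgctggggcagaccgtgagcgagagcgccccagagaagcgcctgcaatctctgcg
Ankrd1 (chr19:36119795-36120094, minus strand): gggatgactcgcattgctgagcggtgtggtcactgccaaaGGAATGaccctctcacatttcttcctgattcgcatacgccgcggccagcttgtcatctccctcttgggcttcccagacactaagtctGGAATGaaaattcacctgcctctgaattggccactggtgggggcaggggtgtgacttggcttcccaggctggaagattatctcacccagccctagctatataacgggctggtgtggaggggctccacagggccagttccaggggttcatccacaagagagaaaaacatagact
Ajuba (chr14:54577612-54577911, minus strand): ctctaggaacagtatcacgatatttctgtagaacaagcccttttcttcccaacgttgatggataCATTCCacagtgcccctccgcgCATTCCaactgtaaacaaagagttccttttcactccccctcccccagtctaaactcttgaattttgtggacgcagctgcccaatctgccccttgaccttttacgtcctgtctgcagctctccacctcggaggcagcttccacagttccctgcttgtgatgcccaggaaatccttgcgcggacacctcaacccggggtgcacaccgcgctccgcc
Wtip (chr7:34133219-34133518, minus strand): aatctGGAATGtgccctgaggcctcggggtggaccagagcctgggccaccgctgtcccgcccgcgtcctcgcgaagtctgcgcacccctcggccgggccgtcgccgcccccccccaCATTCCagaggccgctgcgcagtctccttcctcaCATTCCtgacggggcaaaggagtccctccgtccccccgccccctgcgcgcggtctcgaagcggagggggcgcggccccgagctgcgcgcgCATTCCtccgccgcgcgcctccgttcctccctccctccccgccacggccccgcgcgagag
F3 (chr3:121723287-121723586, plus strand): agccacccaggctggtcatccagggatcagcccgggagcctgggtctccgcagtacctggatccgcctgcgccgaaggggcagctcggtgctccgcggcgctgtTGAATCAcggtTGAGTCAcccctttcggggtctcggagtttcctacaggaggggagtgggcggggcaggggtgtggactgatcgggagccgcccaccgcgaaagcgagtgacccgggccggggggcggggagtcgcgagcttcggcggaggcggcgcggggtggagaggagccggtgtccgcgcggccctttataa
A TEAD match was present in at least 1 promoter of 7 of 15 members that rose, 1 of 6 that fell and 2 of 5 that missed the threshold. Over all tested genes with a promoter it was present in 385 of 2442 that rose, 414 of 2766 that fell and 680 of 4970 that missed the threshold. A match describes letters in the window and is not evidence of binding.

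Of the 40 genes 38 were counted often enough to test, and 33 of these differed between YAP5SA and control (86.8%), against 49.1% of all 14058 tested genes. In YAP5SA organoids 23 members rose (60.5%, against 23.6% of all tested genes) and 10 fell (26.3%, against 25.5%). At least 2-fold changes were found in 17 members (44.7%, against 13.8% of all tested genes), 12 of them upward (5.26% of all tested genes) and 5 downward (8.59%). The median log2 fold change was 0.42 over the tested members and 0.00 over all tested genes, and the median size of the change, either way, was 0.79 and 0.26. The groups were fully separate in 29 members, against 45.7% of all tested genes. Members were also more abundant than the average tested gene (median log2 CPM 5.49 and 4.58), and called genes were more common among abundant genes, with 59.8% called among the 3515 most abundant tested genes, where 11 of 13 members were called. The standard readouts did not mark the direction of the list, since Ccn2 and Ankrd1 fell and Ccn1 did not pass the test. The filter on low counts asked for 4 libraries at its cutoff. Dlc1 reached it in 4 YAP5SA and 0 control libraries, Pmp22 and Dab2 each in 4 YAP5SA and 2 control libraries, and Fstl1 in 0 YAP5SA and 4 control libraries. These 4 genes passed only through the group in which they were higher, so the counts describe the members that were tested and not the whole list. The list was also chosen with earlier results of these data known. The shares beside those of all tested genes therefore describe the list and do not test it.

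**Figure D1:**
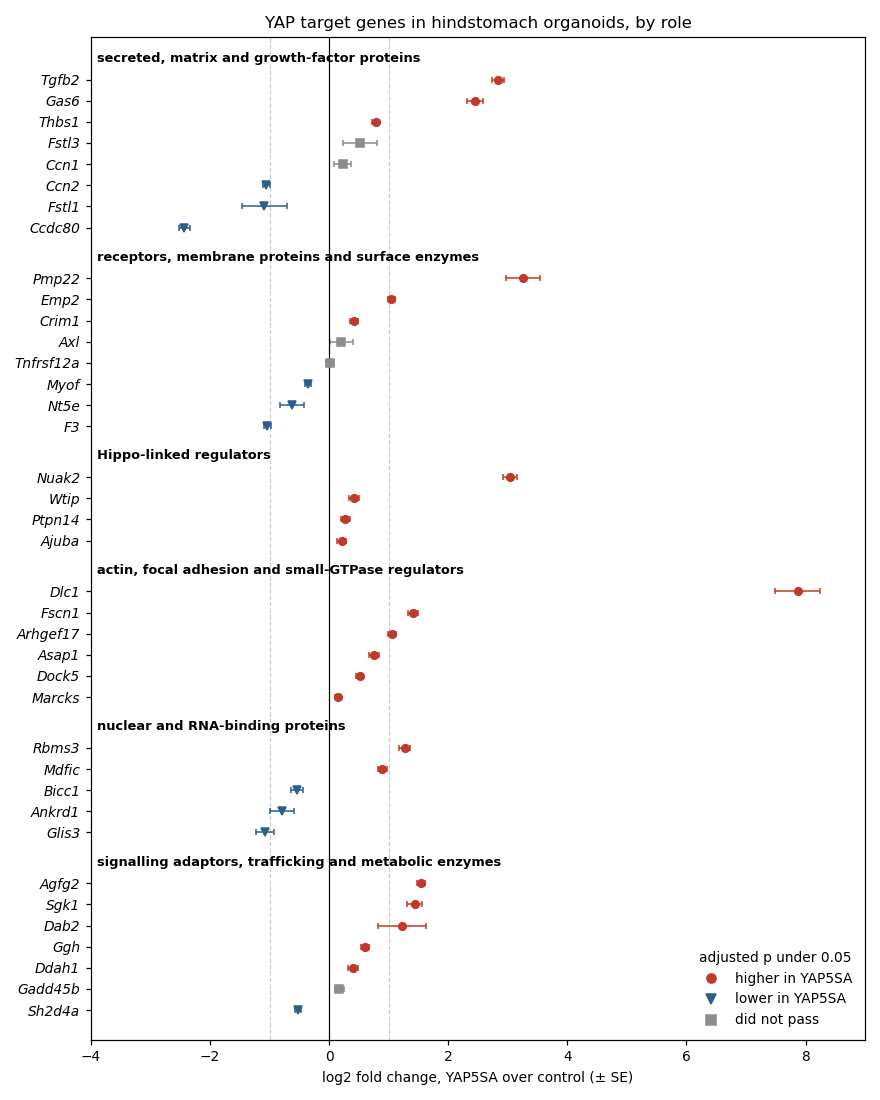
Log2 fold changes of the 38 tested YAP target genes, YAP5SA over control, with standard errors (n = 4 libraries each), grouped by role; dashed lines mark 2-fold. All tested Hippo-linked and actin genes lie to the right of 0, while the secreted, surface and nuclear groups lie on both sides, and the position of Dlc1 depends on the small prior count because controls had 3 counts.

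The secreted proteins divided, with 3 of 8 tested genes higher and 3 lower in YAP5SA, against 23.6% higher and 25.5% lower among all tested genes. Ccn1 and Ccn2 encode matricellular proteins of the CCN family and are the most used readouts of YAP. Ccn2 had 222, 191, 194 and 220.0 CPM in the YAP5SA libraries, against 429, 399.5, 413 and 474 CPM in the controls. Each YAP5SA value lay below each control value (log2 fold change -1.05 ± 0.06 SE, adjusted p = 2.09e-10). Ccn1 had 115, 78.3, 74.6 and 109 CPM in YAP5SA and 83.0, 72.6, 80.5 and 86.0 CPM in controls. YAP5SA 1 and YAP5SA 4 stood above all controls, while YAP5SA 2 and 3 lay within their range, and the difference missed the threshold (0.23 ± 0.14 SE on the log2 scale, adjusted p = 0.205). It passed without YAP5SA 3 (adjusted p = 0.0276) and without a filter on low counts (0.0212). Ccn2 shares 23.2% of its exon length with an antisense transcript, Gm15270, and within that shared part reads of either cannot be told apart without strand. Thbs1, the matrix glycoprotein thrombospondin-1 and the most abundant member per length in YAP5SA, rose 1.72-fold to 1190 ± 25 CPM in YAP5SA, against 693 ± 59 CPM in controls.

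The largest rises among ligands were those of Tgfb2 and Gas6. Tgfb2, a ligand of the TGF-beta receptors, had 49.5, 53.0, 53.0 and 54.9 CPM in YAP5SA, against 8.34, 5.90, 7.99 and 7.35 CPM in controls, a 7.12-fold rise (adjusted p = 5.55e-14). Gas6, the ligand of the receptor kinases Tyro3, Axl and Mertk, had 92.6, 92.9, 102 and 112 CPM in YAP5SA, against 22.5, 16.5, 20.7 and 12.9 CPM in controls, a 5.46-fold rise (adjusted p = 1.34e-08). The groups were far apart in both genes. Ccdc80, a secreted matrix protein, went the other way, with 6.67, 8.39, 6.76 and 7.36 CPM in YAP5SA and 38.1, 38.4, 39.5 and 41.9 CPM in controls (log2 fold change -2.43 ± 0.09 SE, adjusted p = 2.58e-13), the largest fall among the members tested.

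The follistatin-related genes and Fjx1 were close to the limit of detection. Fstl1 had 0.518, 0.387, 0.386 and 0.236 CPM in YAP5SA, against 0.758, 0.921, 0.764 and 0.825 CPM in controls, and fell without overlap (log2 fold change -1.09 ± 0.38 SE, adjusted p = 0.0230). The call was lost without YAP5SA 4 (adjusted p = 0.0733), without control 2 (0.0603), with DESeq2 (0.0840) and without a filter on low counts (0.0989). Fstl3, which encodes an inhibitor of activin, had 1.79 ± 0.34 CPM in YAP5SA and 1.26 ± 0.37 CPM in controls and did not pass the test (adjusted p = 0.153), and 47.3% of its exon length is shared with Prss57 on the other strand. Fjx1, the mouse relative of the Drosophila gene four-jointed, which acts on the cadherins Fat and Dachsous in the fly, was not tested. It had 4 counts over the YAP5SA libraries and 57 over the controls, a ratio of pooled levels, control over YAP5SA, of 13.99 (exact 95% counting interval 5.18 to 53.1).

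**Figure D2:**
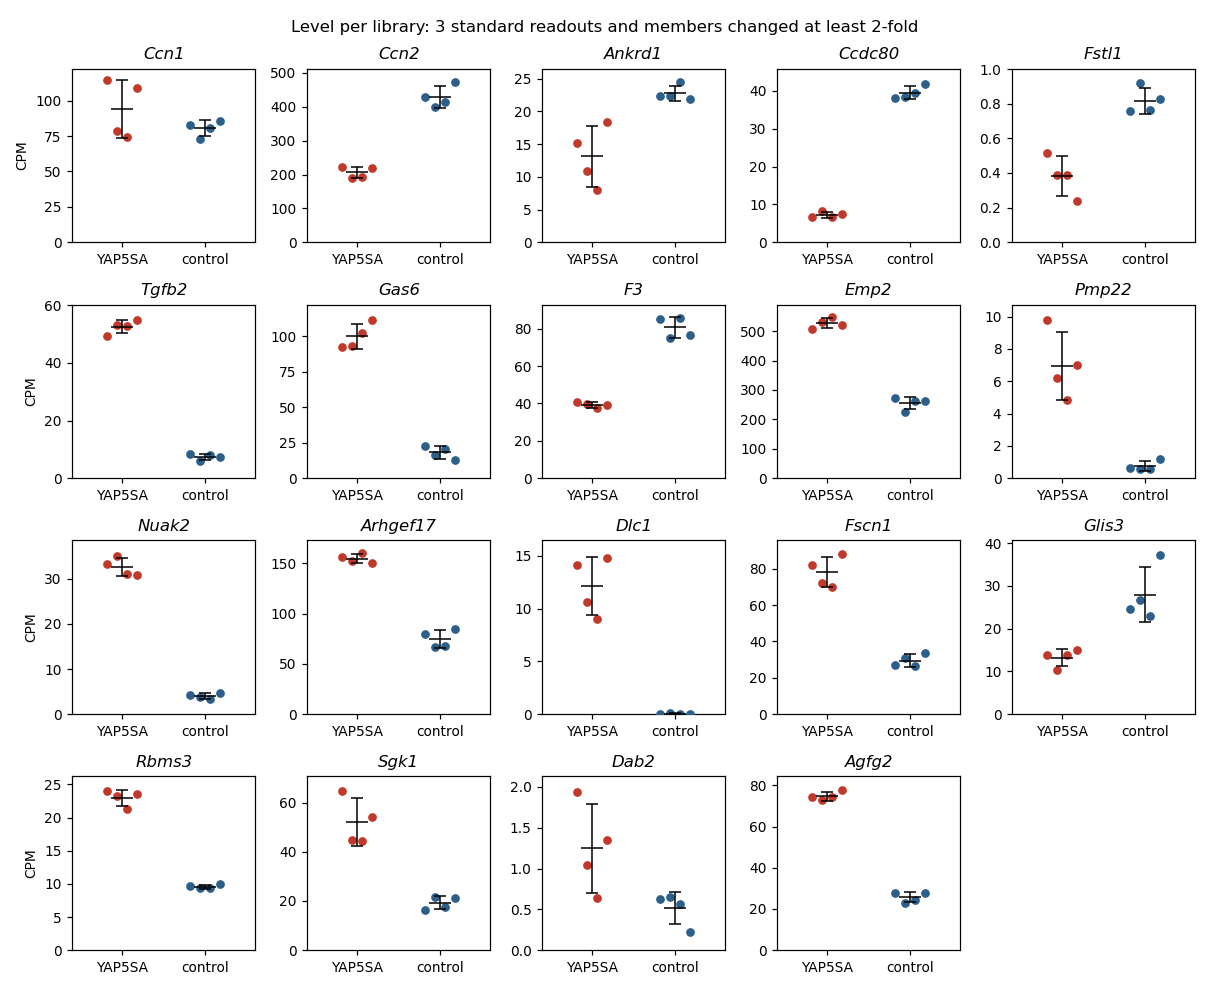
CPM of each library (points, in the order of replicate numbers) with the mean and SD (bars, n = 4) for Ccn1, Ccn2, Ankrd1 and the members called with at least a 2-fold change. The groups are separate in all panels but those of Ccn1 and Dab2. YAP5SA 1 and 4 lie above YAP5SA 2 and 3 in the panels of Ccn1, Ccn2, Ankrd1, Pmp22, Dlc1, Fscn1, Glis3, Rbms3, Sgk1 and Dab2.

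The 8 receptors, membrane proteins and surface enzymes also divided, with 3 higher, 3 lower and 2 short of the threshold (23.6% higher and 25.5% lower among all tested genes). Pmp22 and Emp2 belong to the same family of small tetraspan membrane proteins, and both rose. Pmp22 had 9.77, 6.18, 4.83 and 7.01 CPM in YAP5SA, against 0.631, 0.596, 0.560 and 1.20 CPM in controls, a 9.54-fold rise (adjusted p = 2.38e-08) that rests on 48 counts over the controls. Emp2 was far more abundant, with 506, 530.5, 546 and 522 CPM in YAP5SA, against 273, 227, 261 and 262 CPM in controls, a 2.06-fold rise (adjusted p = 4.93e-11). Groups did not overlap in either gene. Crim1, a membrane protein that binds BMPs, rose 1.34-fold to 186 ± 12 CPM in YAP5SA, against 139 ± 13 CPM in controls.

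F3 encodes tissue factor, the cell-surface starter of blood clotting. It had 40.8, 39.6, 37.3 and 39.3 CPM in YAP5SA, against 85.1, 75.2, 85.4 and 76.7 CPM in controls, without overlap (log2 fold change -1.04 ± 0.06 SE, adjusted p = 2.69e-10). Nt5e, which encodes CD73, the surface enzyme that makes adenosine from AMP, averaged 21.5 ± 7.2 CPM in YAP5SA and 33.1 ± 3.3 CPM in controls (log2 fold change -0.62 ± 0.21 SE, adjusted p = 0.0323). YAP5SA 4, at 30.0 CPM, lay above control 2, at 28.5 CPM, and the call was lost without control 1, 3 or 4 (adjusted p = 0.0571, 0.0711 and 0.110). Myof, a ferlin of membrane fusion and repair, fell slightly, to 588 ± 31 CPM in YAP5SA, against 753 ± 57 CPM in controls. The receptor kinase Axl and Tnfrsf12a, the receptor of the cytokine TWEAK, did not pass the test. Axl averaged 13.4 ± 4.3 CPM in YAP5SA and 11.6 ± 1.1 CPM in controls, and Tnfrsf12a 121 ± 11 CPM in YAP5SA and 120.1 ± 7.0 CPM in controls (log2 fold change 0.01 ± 0.07 SE).

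All 4 Hippo-linked regulators in the list rose (23.6% of all tested genes did), though only Nuak2 by at least 2-fold. Nuak2, an AMPK-related kinase that promotes YAP activity in other cells, had 33.3, 35.1, 31.0 and 30.9 CPM in YAP5SA, against 4.23, 3.74, 3.26 and 4.80 CPM in controls. The groups were far apart, and the rise was 8.23-fold (adjusted p = 2.16e-13). Wtip and Ajuba are LIM-domain proteins that hold LATS kinases at cell junctions, and Ptpn14 is a phosphatase that binds YAP. Wtip rose 1.34-fold to 31.5 ± 1.1 CPM in YAP5SA, against 23.5 ± 2.4 CPM in controls, and its groups did not overlap. Ptpn14 averaged 247 ± 4 CPM in YAP5SA and 205 ± 29 CPM in controls (log2 fold change 0.27 ± 0.07 SE, adjusted p = 0.00660), with control 4 (248 CPM) inside the YAP5SA range. Ajuba averaged 110.4 ± 8.8 CPM in YAP5SA and 95.7 ± 11.4 CPM in controls (1.15-fold, adjusted p = 0.0387), with overlap. That call was lost without YAP5SA 1 or 4 or control 1 or 3 (adjusted p = 0.149, 0.0729, 0.151 and 0.134).

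Regulators of actin and of small GTPases moved in a single direction, with all 6 tested genes higher in YAP5SA (23.6% of all tested genes) and no overlap between the groups in any of them (45.7% of all tested genes). Dlc1, a GTPase-activating protein, had 14.1, 10.7, 9.01 and 14.8 CPM in YAP5SA, and 1, 2, 0 and 0 counts in the controls. It was thus present in all YAP5SA libraries and almost absent from controls, with 803 counts over the YAP5SA libraries and 3 over the controls. The ratio of pooled levels was 273 (exact 95% counting interval 92.9 to 1324), and the adjusted p was 6.88e-12. Fscn1, the actin-bundling protein fascin, had 81.8, 72.4, 70.0 and 87.9 CPM in YAP5SA, against 26.8, 30.9, 26.4 and 33.8 CPM in controls, a 2.66-fold rise (adjusted p = 4.30e-10). Arhgef17, a guanine nucleotide exchange factor, had 157, 152, 159.9 and 150.5 CPM in YAP5SA, against 79.9, 66.7, 68.2 and 84.8 CPM in controls, a 2.07-fold rise (adjusted p = 6.95e-10). The groups were separate in all 3 of these genes.

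Asap1, which inactivates Arf GTPases, rose 1.69-fold to 49.9 ± 3.9 CPM in YAP5SA, against 29.7 ± 3.4 CPM in controls. Dock5, an exchange factor for Rac, rose 1.42-fold to 74.9 ± 2.1 CPM in YAP5SA, against 52.7 ± 3.7 CPM in controls. Marcks, an actin-binding substrate of protein kinase C, differed least, with 122 ± 2 CPM in YAP5SA and 110.5 ± 4.8 CPM in controls (1.11-fold, adjusted p = 0.0260), and its call was lost without YAP5SA 1 or 2 or control 2 or 3 (adjusted p = 0.0738, 0.0700, 0.0713 and 0.0946). The focal adhesion gene Tns1 was not tested. It had 18 counts over the YAP5SA libraries and 8 over the controls, and the ratio of pooled levels was 2.29 (exact 95% counting interval 0.948 to 6.09).

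All 5 nuclear and RNA-binding genes changed (49.1% of all tested genes did), 2 upward and 3 downward. Ankrd1, a nuclear ankyrin-repeat protein known from heart muscle, had 15.1, 10.8, 8.05 and 18.4 CPM in YAP5SA, against 22.4, 22.3, 24.4 and 21.8 CPM in controls. The YAP5SA libraries spread widely but all lay below the controls (log2 fold change -0.79 ± 0.20 SE, adjusted p = 0.00582). Glis3, a zinc-finger transcription factor, had 13.8, 10.4, 13.8 and 15.02 CPM in YAP5SA, against 24.7, 26.8, 22.9 and 37.4 CPM in controls, also without overlap (log2 fold change -1.07 ± 0.15 SE, adjusted p = 3.05e-05). The RNA-binding proteins went in opposite directions. Rbms3 had 24.1, 23.2, 21.3 and 23.5 CPM in YAP5SA, against 9.66, 9.31, 9.42 and 9.98 CPM in controls, a 2.40-fold rise (adjusted p = 1.80e-09). Bicc1 fell to 23.2 ± 2.9 CPM in YAP5SA, against 33.9 ± 2.8 CPM in controls (adjusted p = 0.000107). Mdfic, which binds transcription factors through a domain shared with the MyoD inhibitor Mdfi, rose 1.85-fold to 33.1 ± 0.4 CPM in YAP5SA, against 17.8 ± 0.9 CPM in controls.

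Among 7 signalling adaptors, trafficking proteins and metabolic enzymes, 5 were higher, 1 was lower and 1 missed the threshold (23.6% higher and 25.5% lower among all tested genes). Agfg2, an Arf GTPase-activating domain protein with FG repeats, had 74.2, 72.8, 74.2 and 77.6 CPM in YAP5SA, against 27.8, 23.1, 24.5 and 27.7 CPM in controls, a 2.91-fold rise (adjusted p = 3.81e-12). Sgk1, a kinase of ion transport and cell survival, had 64.9, 44.8, 44.3 and 54.2 CPM in YAP5SA, against 16.4, 21.7, 17.7 and 21.2 CPM in controls, a 2.71-fold rise (adjusted p = 2.59e-07). Neither gene overlapped between the groups. Dab2, an adaptor of endocytosis, had 1.94, 1.049, 0.644 and 1.35 CPM in YAP5SA, against 0.631, 0.650, 0.560 and 0.225 CPM in controls (2.33-fold, adjusted p = 0.0175). YAP5SA 3 lay just below control 2, and the call was lost without YAP5SA 1 (adjusted p = 0.0833).

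The enzyme genes Ggh and Ddah1 changed less. Ggh, a hydrolase of folate, rose 1.52-fold to 98.2 ± 4.2 CPM in YAP5SA, against 64.7 ± 6.6 CPM in controls. Ddah1, which breaks down an inhibitor of nitric oxide synthase, rose 1.32-fold to 29.5 ± 2.3 CPM in YAP5SA, against 22.4 ± 1.4 CPM in controls. Sh2d4a, an SH2-domain adaptor, fell to 81.4 ± 3.6 CPM in YAP5SA, against 117 ± 4 CPM in controls (log2 fold change -0.53 ± 0.05 SE). The stress gene Gadd45b averaged 55.6 ± 2.7 CPM in YAP5SA and 49.5 ± 5.0 CPM in controls and did not pass the test (adjusted p = 0.0679). It passed without control 3 (adjusted p = 0.0111), with scaling by library size alone (0.0394) and without a filter on low counts (0.0396).

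Most Hippo pathway components outside the list differed little. Of 31 genes 28 were tested, and 8 rose and 5 fell (46.4% called, against 49.1% of all tested genes), with 3 changed by at least 2-fold. The TEAD family gene Tead4 rose to 46.3 ± 3.7 CPM in YAP5SA, against 15.95 ± 1.55 CPM in controls. Vgll1, a TEAD cofactor, rose to 1.45 ± 0.33 CPM in YAP5SA, against 0.0722 ± 0.0847 CPM in controls, which had 5 counts in all. Vgll1 passed the filter on low counts only through YAP5SA. Its relative Vgll3 averaged 55.8 ± 11.6 CPM in YAP5SA and 39.2 ± 4.2 CPM in controls (adjusted p = 0.00833). Lats2 and Amotl2, pathway inhibitors that are themselves YAP targets in other cells, rose to 26.4 ± 1.6 CPM and 226 ± 22 CPM in YAP5SA, against 16.9 ± 3.4 CPM and 128 ± 13 CPM in controls. The angiomotin relative Amotl1 fell to 12.4 ± 3.1 CPM in YAP5SA, against 57.4 ± 8.5 CPM in controls.

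The ligands in the list were set beside their receptors and relatives. Of 28 ligand and receptor partners 17 were tested, of which 6 rose and 7 fell (76.5% called, against 49.1% of all tested genes). Of 42 paralogues of members 26 were tested, of which 8 rose and 8 fell (61.5% called, against the same 49.1%). Levels of different genes are compared as CPM per kb of exon length. Tgfb3 fell as Tgfb2 rose. Tgfb3 had 9.15 ± 0.65 CPM per kb in YAP5SA, against 132 ± 14 CPM per kb in controls (log2 fold change -3.85 ± 0.08 SE, adjusted p = 1.42e-16). Tgfb2 had 9.08 ± 0.40 CPM per kb in YAP5SA, against 1.28 ± 0.19 CPM per kb in controls, so that the 2 ligand genes were at similar levels in YAP5SA and far apart in controls. Tgfb1 had 1.93 ± 0.08 CPM per kb in YAP5SA and 2.10 ± 0.33 CPM per kb in controls and did not pass the test. The receptor gene Tgfbr2 fell to 45.7 ± 2.0 CPM per kb in YAP5SA, against 90.3 ± 7.3 CPM per kb in controls, and Tgfbr1 to 6.66 ± 0.34 CPM per kb in YAP5SA, against 8.88 ± 0.47 CPM per kb in controls.

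The ligands of the TAM receptor kinases (Tyro3, Axl and Mertk) also moved apart. Gas6 rose as given above, to 39.2 ± 3.5 CPM per kb in YAP5SA, against 7.13 ± 1.70 CPM per kb in controls, while its relative Pros1 fell to 0.446 ± 0.099 CPM per kb in YAP5SA, against 2.27 ± 0.44 CPM per kb in controls. Among the receptors Tyro3 fell to 1.70 ± 0.37 CPM per kb in YAP5SA, against 3.44 ± 0.42 CPM per kb in controls, and Axl did not pass the test. Mertk was higher at low levels (2.66 ± 0.40 CPM in YAP5SA and 1.65 ± 0.48 CPM in controls, adjusted p = 0.0357), a call that was lost without YAP5SA 1 or 4 or control 3 or 4 (adjusted p = 0.0892, 0.0906, 0.0881 and 0.0884), with DESeq2 (0.0591) and with the replicate number as a block (0.0527). Cd47, a receptor of thrombospondin-1, fell to 103.5 ± 7.6 CPM in YAP5SA, against 222 ± 7 CPM in controls, whereas Thbs1 rose. The integrin gene Itgb5 and the activin and inhibin subunit genes Inhba and Inhbb rose, Inhbb to 8.13 ± 1.49 CPM in YAP5SA, against 0.720 ± 0.494 CPM in controls. Inhba and Inhbb had 77 and 48 counts over the controls, and Inhbb passed the filter on low counts only through YAP5SA. Integrin genes did not move together. Itgb6 fell to 42.0 ± 2.5 CPM in YAP5SA, against 81.3 ± 5.9 CPM in controls, Itgav also fell, and Itgb1 did not pass the test.

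**Figure D3:**
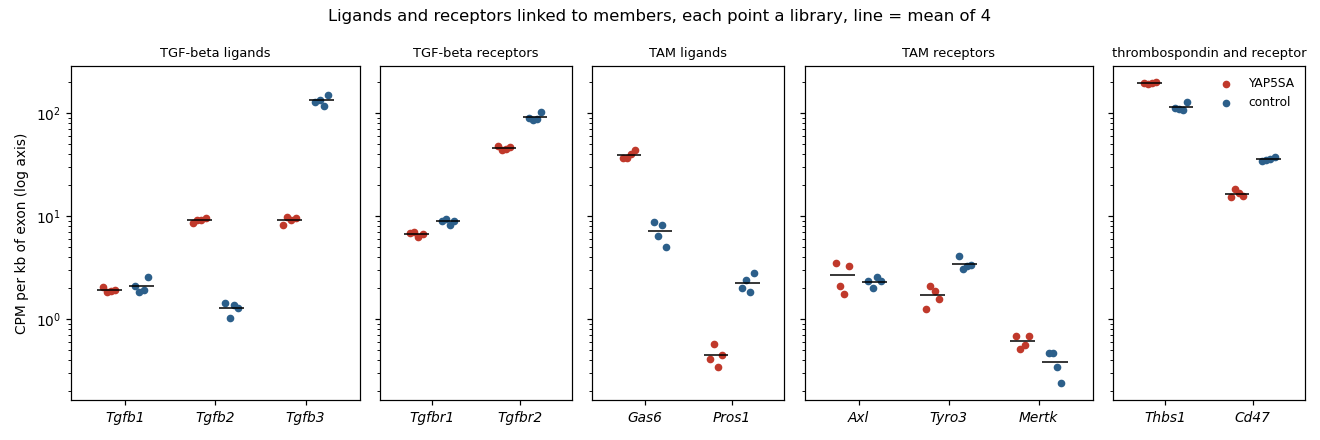
CPM per kb of exon (log axis) for TGF-beta and TAM ligands and receptors and for Thbs1 and Cd47; each point is a library and the line is the mean of 4. Tgfb2 and Tgfb3 lie at about 9 CPM per kb in YAP5SA and at 1.28 and 132 in controls, and Gas6 and Pros1 move in opposite directions.

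Some paralogues moved opposite to a member and others in the same direction. Asap2 fell to 3.30 ± 0.43 CPM in YAP5SA, against 40.3 ± 2.8 CPM in controls, whereas Asap1 rose. Mdfi fell to 0.629 ± 0.147 CPM in YAP5SA, against 6.51 ± 0.36 CPM in controls, whereas Mdfic rose. Mdfi had 41 counts over the YAP5SA libraries and passed the filter on low counts only through the controls. Tns2, a relative of the untested Tns1, rose to 35.9 ± 2.8 CPM in YAP5SA, against 9.73 ± 1.53 CPM in controls. Of its other relatives, Tns3 rose to 181 ± 7 CPM in YAP5SA, against 124 ± 9 CPM in controls. Tns4 fell to 149 ± 11 CPM in YAP5SA, against 239 ± 34 CPM in controls. Dysf, a relative of Myof, rose to 0.866 ± 0.180 CPM in YAP5SA, against 0.218 ± 0.128 CPM in controls. Dysf had 57 counts over the YAP5SA libraries and 14 over the controls, and passed the filter on low counts only through YAP5SA. In the NUAK and EMP families both relatives moved alike, since Nuak1 rose to 9.88 ± 1.65 CPM in YAP5SA, against 2.73 ± 0.50 CPM in controls, and Emp1 to 292 ± 26 CPM in YAP5SA, against 147 ± 6 CPM in controls. Nuak1, Emp1, Tns3, Tns4, Tgfb1, Tgfbr1, Mertk, Itgb6, Itgav and Itgb1 were chosen for mention after their values were seen.

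The members differed in how far the libraries of a group spread. The median coefficient of variation of tested members was 7.81% in YAP5SA and 9.26% in controls, close to that of all tested genes (7.75% in YAP5SA and 10.1% in controls). In YAP5SA it was above 20% in 8 members, which were Ccn1, Ankrd1, Axl, Nt5e, Pmp22, Dlc1, Fstl1 and Dab2. In controls it was above 20% in 6 members, which were Fstl3, Gas6, Pmp22, Dlc1, Glis3 and Dab2. Neither number was counted over all tested genes. Gas6 varied by 9.01% in YAP5SA and 23.9% in controls. Ankrd1 varied by 35.0% in YAP5SA and 5.14% in controls, Ccn1 by 21.9% in YAP5SA and 7.13% in controls, and Axl by 32.2% in YAP5SA and 9.25% in controls. YAP5SA 1 and 4 both exceeded YAP5SA 2 and 3 in 19 of 38 tested members, including Ccn1, Ccn2, Ankrd1, Axl, Nt5e, Pmp22, Dlc1, Fscn1 and Sgk1, against 21.8% of all tested genes. Control 1 and 4 did so over control 2 and 3 in 13 members, against 20.6% of all tested genes. YAP5SA 3 was the lowest of its group in 20 members and the highest in 3, which was not counted over all tested genes. This pattern was noticed in the values and was not tested, and the labels give no batch.

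**Figure D4:**
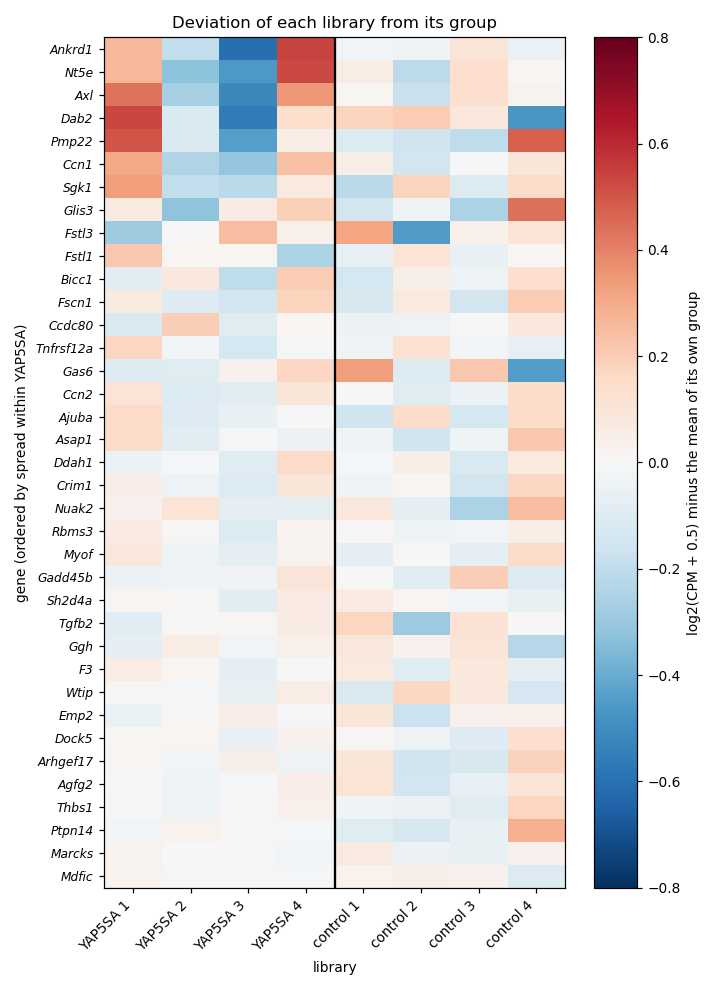
Deviation of each library from the mean of its own group, in log2(CPM + 0.5), for 37 tested members (Dlc1 is left out because 2 controls had 0 counts), ordered by their spread within YAP5SA. YAP5SA 1 and 4 are above, and YAP5SA 2 and 3 below, the group mean in each of the 7 uppermost rows, from Ankrd1 to Sgk1.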

How the data were processed

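Reads were 150 bp paired-end from total RNA, per the labels' protocols. Per the submitters' processing notes, the authors used cutadapt, HISAT2 2.0.1 and HTSeq 0.6.1 on build mm9 to make the deposited table of raw read counts per gene. For the annotation release and the strand setting, the status is: not given in the sources used here. The 2639 rows without a name (0.190% to 0.221% of counts) were left out, and 959 rows sharing 77 symbols were summed. Genes were kept by filterByExpr (minimum count 10, minimum total 15), scaled by TMM. The test was that of edgeR 4.0.16 (R 4.3.3), a robust glmQLFit with glmQLFTest and genotype as the only term. Benjamini-Hochberg adjustment ran over all 14058 tested genes, and a call is an adjusted p below 0.05. Every adjusted p in the text comes from this test unless another is named. The SE of a log2 change is its size over the square root of F, and fold changes are YAP5SA over control. Counting intervals cover counting error only, since reads are not independent molecules.

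All 40 members are named by role. Values in every library are given for Ccn1, Ccn2, Ankrd1 and members called with a log2 change of at least 1, and up to 6 called genes of the largest change are named from each other list, with exceptions said. Members and lists were chosen with earlier results of these data known. Exon lengths and overlaps are from GENCODE M21 and promoters from RefSeq, both on another build than the counts. The test was run on simulated counts in which far fewer genes were changed than were called here. That check therefore does not cover changes as widespread as these. Alternatives were RLE and library-size scaling, no filter, DESeq2 1.42.0, no robust estimation, a threshold of 0.01, a replicate block and leaving out each library. Library pairs of a group differed beyond sampling noise (chi-square per degree of freedom 3.58 to 30.1), so no pair was merged as a repeat deposit of 1 library. This does not show that they are separate cultures.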

Additional observations from a re-analysis of the deposited data

Results flagged for a closer look

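Within a group of 4 libraries, a single library stood apart from the other 3 in 5 of 76 groups examined (38 tested members in 2 groups), and chance alone marks about 1 group in 20. Pmp22 had 1.20 CPM in control 4, and the next control had 0.631 CPM. Ptpn14 had 248 CPM in control 4, and the next control had 195 CPM. Mdfic had 33.8 CPM in YAP5SA 1, next to 33.0 CPM in its nearest library, and 16.5 CPM in control 4, next to 18.2 CPM, in both cases within a narrow range. Gadd45b had 59.7 CPM in YAP5SA 4, and the next YAP5SA library had 54.6 CPM. Control 4 is the library concerned in 3 of the 5, and it has the lowest total count. The part of depth in this was not tested.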

How the results depend on the processing

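Under 15 alternative fits no called member changed sign, and 543 of 570 member values stayed on their side of the threshold. Tnfrsf12a, which missed the threshold, ranged from -0.05 to 0.06 on the log2 scale. In 31 of 38 tested members no alternative moved the call, and the others were Ajuba, Ccn1, Dab2, Fstl1, Gadd45b, Marcks and Nt5e. Members called higher ranged from 20 to 24 and members called lower from 9 to 10 when a library was left out, and over all alternatives from 20 to 25 and from 8 to 10. Calls over all genes ranged from 6371 to 7317 without a library and were 5377 at a threshold of 0.01. Scaling by library size alone moved the median of all tested genes to 0.03. Same-numbered libraries of the groups did not deviate together (correlations of -0.08, -0.10, 0.10 and 0.03 for numbers 1 to 4), so the numbers were not read as pairs. With the replicate number as a block, 22 members rose, 10 fell and 6586 genes were called, and of the members Marcks lost its call (adjusted p = 0.0522). Among the members, depth limits Fstl1, Fstl3, Dab2, Pmp22, Fjx1, Tns1 and Dlc1, each with fewer than 100 counts over at least 1 group.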
